A study of Mus musculus with 24 samples.

Results

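The mitochondrial ribosomal protein genes were taken as every gene whose symbol starts with Mrpl or Mrps followed by a number and whose mean was at least 10 estimated counts over the 24 libraries. There were 78 such genes among the 37620 genes in the table. The symbol pattern matched 80 genes, and the Mrps36 pseudogenes Mrps36-ps1 and Mrps36-ps2 fell under the minimum. Polyadenylated RNA was sequenced from crypts of the mouse jejunum. Mice of 5 to 10 weeks of age received 56 mg/kg tamoxifen on each of 3 days, and crypts were collected 24 h (day 1) or 48 h (day 2) after induction. The 4 genotypes were labelled Control, NlecKO (conditional knockout of Notchless, Nle1), ApccKO (conditional knockout of Apc) and ApccKO;NlecKO, called the double knockout below. Each of the 8 groups of genotype and day held 3 mice, 1 library per mouse. The labels give neither the Cre driver nor the alleles of the Control mice, so which crypt cells lost the genes is not known here.

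Mitochondrial ribosomes translate the few proteins that the mitochondrial genome encodes, all of them subunits of the oxidative phosphorylation machinery. Every protein of the mitochondrial ribosome is encoded in the nucleus, made in the cytosol by cytosolic ribosomes and imported. Part of these proteins have a counterpart in the bacterial ribosome and part are specific to mitochondria. Nle1 is an assembly factor of the large subunit of the cytosolic ribosome, and Apc is a negative regulator of Wnt signalling, the pathway that maintains the crypt's stem and progenitor cells.

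By role, the 78 genes comprised 49 large-subunit genes, 26 small-subunit genes, Mrps36 and 2 pseudogene symbols. Of the large-subunit genes, 30 have a bacterial counterpart and 19 are specific to mitochondria, and the small subunit split into 16 and 10. Mrps30 and Mrps18a carry small-subunit names but are counted here as large-subunit proteins, where they reside. Mrps36 is known as a subunit of the 2-oxoglutarate dehydrogenase complex of the citric acid cycle rather than of the ribosome. The pseudogene symbols were Mrpl23-ps1 and Mrpl48-ps.

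The promoters of 7 genes are shown because these genes changed in 1 direction in every comparison of their kind. Mrpl17, Mrpl3 and Mrpl50 were higher, and Mrps36, Mrpl51 and Mrpl34 lower, in all 4 comparisons of Apc loss, and Mrpl41 was lower in all 4 comparisons of Nle1 loss. Each line is the 150 bases before the annotated start from RefSeq (GRCm38.p6), 5′ to 3′ on the gene's strand, with a motif match in capitals.
Mrpl17 (chr7:105811088-105811237, minus strand): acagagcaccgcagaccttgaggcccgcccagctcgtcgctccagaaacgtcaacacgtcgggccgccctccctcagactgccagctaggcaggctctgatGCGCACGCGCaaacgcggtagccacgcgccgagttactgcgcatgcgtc
Mrpl3 (chr9:105053118-105053267, plus strand): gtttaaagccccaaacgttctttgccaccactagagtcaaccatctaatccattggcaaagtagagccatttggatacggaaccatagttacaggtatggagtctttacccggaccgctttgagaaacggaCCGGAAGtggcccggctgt
Mrpl50 (chr4:49521084-49521233, minus strand): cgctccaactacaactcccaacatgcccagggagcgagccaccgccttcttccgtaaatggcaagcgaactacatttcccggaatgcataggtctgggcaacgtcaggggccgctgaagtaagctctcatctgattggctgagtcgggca
Mrps36 (chr13:100744660-100744809, minus strand): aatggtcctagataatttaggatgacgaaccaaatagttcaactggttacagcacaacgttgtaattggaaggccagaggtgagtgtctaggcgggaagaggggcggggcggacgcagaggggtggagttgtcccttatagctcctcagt
Mrpl51 (chr6:125192050-125192199, plus strand): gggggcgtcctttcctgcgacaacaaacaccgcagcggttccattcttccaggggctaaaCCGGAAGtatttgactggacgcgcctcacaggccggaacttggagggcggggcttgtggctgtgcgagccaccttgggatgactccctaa
Mrpl34 (chr8:71464776-71464925, plus strand): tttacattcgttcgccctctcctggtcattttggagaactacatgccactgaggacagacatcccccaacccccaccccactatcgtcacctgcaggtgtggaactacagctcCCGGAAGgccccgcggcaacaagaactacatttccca
Mrpl41 (chr2:24975099-24975248, minus strand): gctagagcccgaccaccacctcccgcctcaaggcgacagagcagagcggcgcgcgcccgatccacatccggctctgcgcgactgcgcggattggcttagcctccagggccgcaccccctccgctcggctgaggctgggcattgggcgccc

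Of the 78 genes, 67 had a promoter entry, with 73 windows of 300 bases from 250 bases before to 50 bases after a start. Both strands were searched for 4 motifs, and the same search ran on all 32851 windows of the RefSeq set. The ETS motif CCGGAAG, the capitals shown for Mrpl3, Mrpl51 and Mrpl34, was in 32.9% of the mitochondrial ribosomal windows and in 8.86% of all windows. The YY1 motif (AANATGGC) was in 27.4% against 6.05%. The NRF1 motif, the capitals shown for Mrpl17, was in 16.4% against 4.6%. The E-box CACGTG, which Myc binds, was in 9.59% against 7.15%. Of its 7 windows 3 are overlapping windows of Mrpl2, and counted by gene it was in 5 of 67, or 7.46%. The stretches shown for Mrpl50, Mrps36 and Mrpl41 held no match to these letters. The ETS letters stood before a gene that was higher under Apc loss (Mrpl3) as well as before genes that were lower (Mrpl51 and Mrpl34).

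The libraries totalled 17860000 to 26470000 estimated counts, and all 78 genes passed the filter on low counts. Nle1 was at 20.1 to 27.9 CPM (counts scaled to library size and composition) in Control and 4.81 to 7.30 in NlecKO libraries. With Apc lost it was at 34.2 to 39.9 CPM in ApccKO and 7.79 to 12.3 in the double knockout, so every library fitted its Nle1 label. Apc was at 112 to 158 CPM in the Apc-intact and 129 to 148 in the Apc-lost libraries. A gene total does not resolve a deleted exon, so this checks nothing. Epithelial markers were present throughout, with summed Epcam, Cdh1, Vil1, Krt8 and Cdx2 at group means of 5007 to 7670 CPM. Group means of summed markers of several cell types differed between genotypes and are given here as values. Group means of the 12 summed enterocyte markers were 22800 (Control), 38660 (NlecKO), 7179 (ApccKO) and 9197 (double knockout) CPM on day 1, and 24290, 36590, 3156 and 6264 CPM on day 2. The 5 summed proliferation markers were at 1046, 672, 1502 and 977 CPM on day 1, and 945, 592, 1294 and 622 CPM on day 2. On day 2, in the same order, summed goblet markers were at 11830, 12070, 2165 and 5521 CPM, stem cell markers at 1634, 876, 3045 and 850, enteroendocrine markers at 614, 1004, 262 and 441, and tuft markers at 93.1, 107, 22.85 and 32.05. Paneth cell markers were at 8785 to 11440 CPM in the 4 groups of that day. The part of such shifts in the results below was not tested, and in bulk RNA fewer cells of a type and less RNA per cell cannot be told apart. Replicates 2 and 3 of day 1 ApccKO and replicate 3 of the day 1 double knockout stood apart, with Gm8730 at 0.32 to 0.578 CPM against 52.7 to 75.7 in the other 9 Apc-lost libraries, and with Lct at 295 to 455 against 10.2 to 126 CPM. The main calls that ended without them are given below with that value. Leaving them out leaves 1 day 1 ApccKO library, which the fit assumes to vary like the other groups. All Apc-lost samples carry codes from 1 run of numbers, so any effect of handling in that order and Apc loss cannot be told apart.

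Compared per transcript length, the genes spanned a wide range of levels. The highest mean levels in TPM (transcript share scaled by length) over the 24 libraries were those of Mrpl52 (341), Mrps21 (325), Mrpl42 (214), Mrpl12 (197) and Mrpl33 (188). The lowest were those of the pseudogene symbol Mrpl48-ps (5.02), Mrpl35 (11.2) and Mrpl1 (15.8), and the median gene was at 70.1 TPM. Within a gene, levels were narrow across genotypes and days. The ratio of the highest to the lowest group mean in CPM ran from 1.11 (Mrpl24 and Mrpl10) to 2.01 (Mrpl23), with a median of 1.33, and 65 of 78 genes stayed under 1.5. The 2 genes at or above a ratio of 2 were Mrpl23 and Mrps36. Mrpl23-ps1 shares 94.6% of its 31-base words with Mrpl23 in the GENCODE transcripts, so counts of these genes are uncertain.

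The heat map of all 78 genes shows this narrow range and where single genes leave it.

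**Figure D1:**
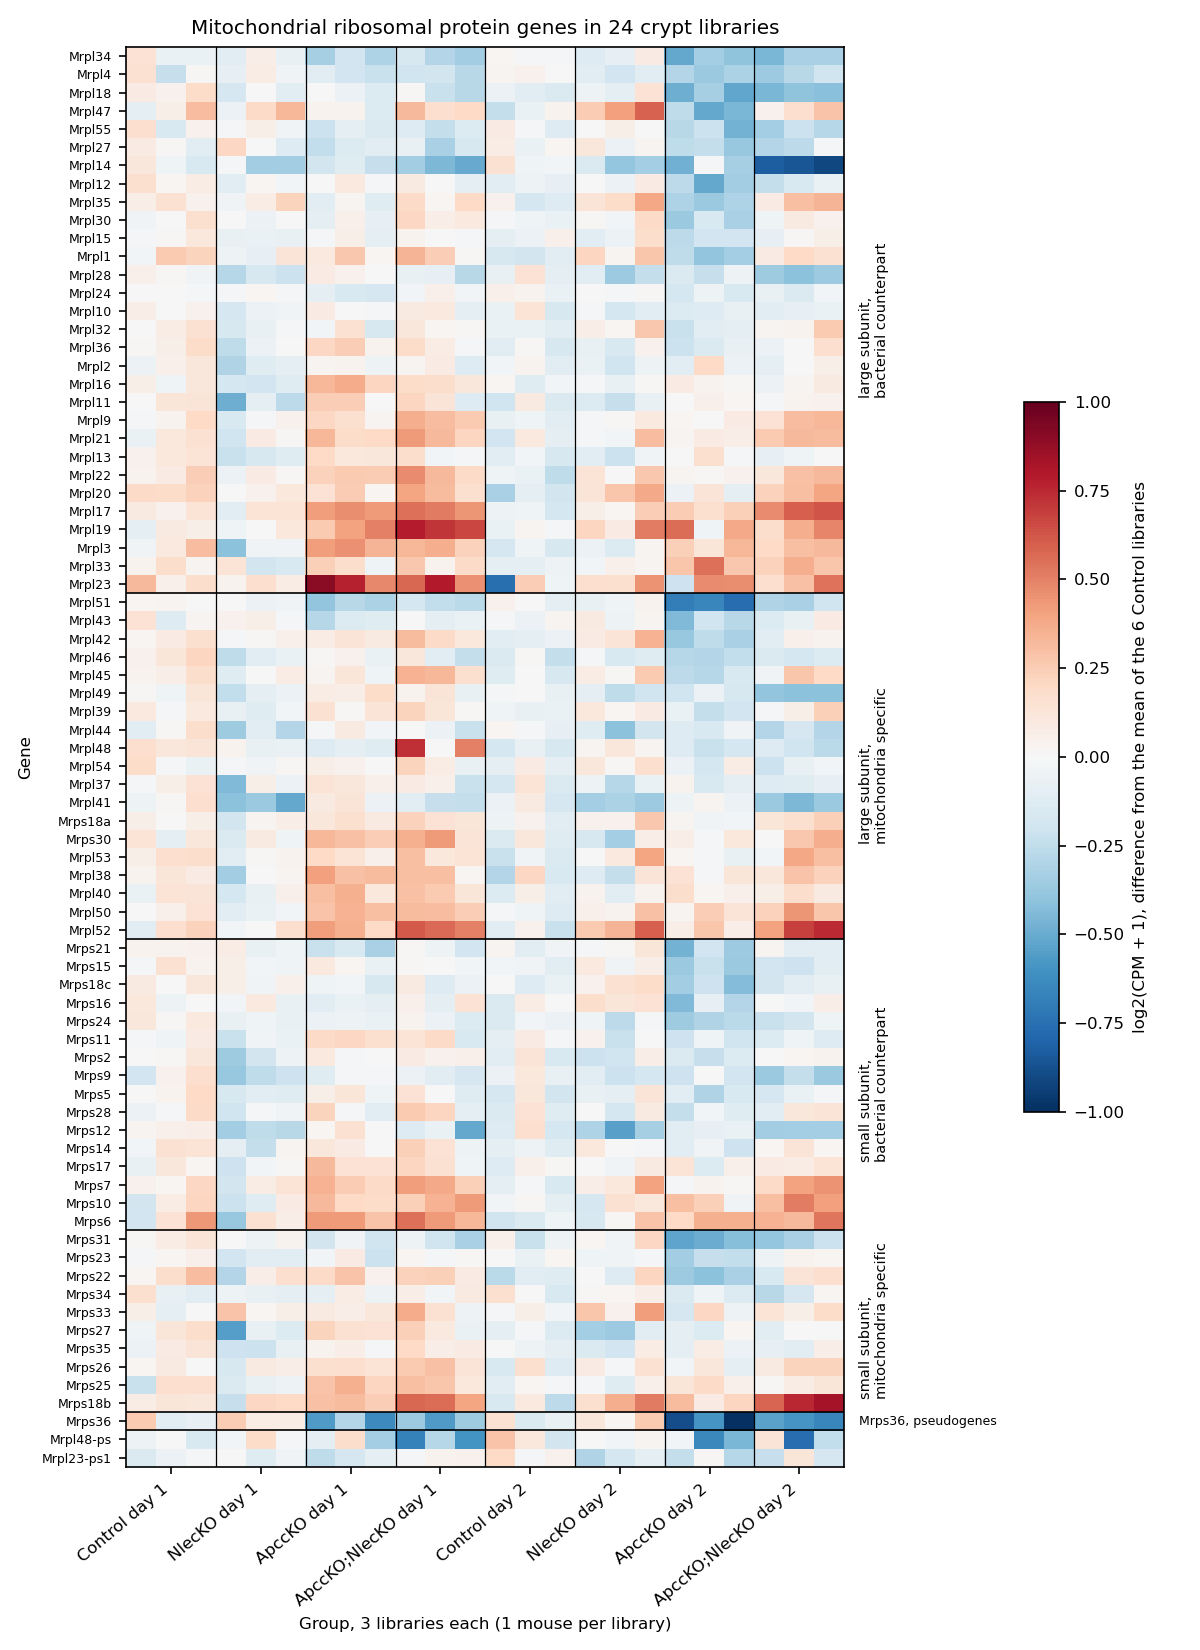
Each row is a gene, grouped by subunit and origin and ordered within a group by its change with Apc loss on day 2. Each column is a library, and colour is log2(CPM + 1) minus the mean of the 6 Control libraries. Mrps36 and Mrpl51 are blue in the Apc-lost columns, Mrpl17 and Mrpl3 are red there, and Mrpl14 is blue in the double knockout of day 2.

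Summed over subunits, the proportion of large to small subunit stayed in a narrow range. The summed TPM of the large-subunit genes was 1.88 to 2.08 times that of the small-subunit genes in the 24 libraries. Within that range ApccKO lay above Control on day 1 (2.013 to 2.026 against 1.911 to 1.986) and on day 2 (1.965 to 2.084 against 1.88 to 1.952). The double knockout and NlecKO overlapped on both days. The sum of all 78 genes on day 1 was 6403 ± 386 TPM (SD, n = 3) in Control, 5498 ± 522 in NlecKO, 7157 ± 123 in ApccKO and 6863 ± 369 in the double knockout. On day 2 the sums were 6010 ± 422, 5742 ± 420, 6562 ± 160 and 6375 ± 372 TPM in the same order. ApccKO libraries lay above the Control libraries on day 1 (7017 to 7244 against 6169 to 6849 TPM), and on day 2 the groups overlapped (6466 to 6746 against 5675 to 6484 TPM). NlecKO libraries lay below the Control libraries on day 1 (4903 to 5877 TPM), and on day 2 they overlapped (5492 to 6227 TPM). TPM is a share of all transcripts, so these sums move with the others. On day 2 the summed cytosolic ribosomal protein genes were at 110100 ± 11940 TPM in Control and 158500 ± 5554 in ApccKO. The summed 13 mitochondrially encoded genes were at 154700 ± 6784 and 116600 ± 15210 TPM in the same groups.

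**Figure D2:**
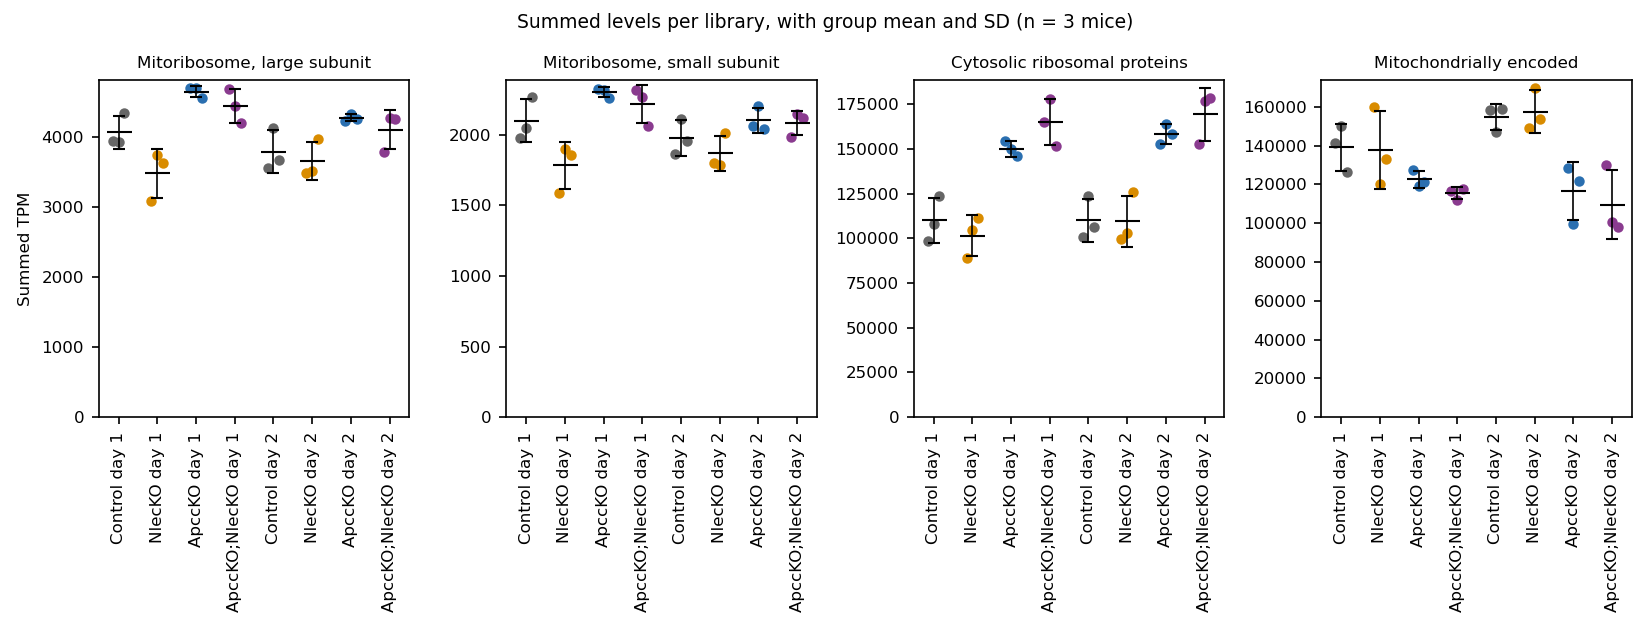
Summed TPM per library for large-subunit and small-subunit mitochondrial ribosomal genes, cytosolic ribosomal protein genes and mitochondrially encoded genes, with group means and SD (n = 3 mice). In the day 2 groups the mitochondrially encoded sum lies at 154700 TPM in Control and 116600 in ApccKO on average, and the cytosolic ribosomal sum at 110100 and 158500.

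Apc loss changed single mitochondrial ribosomal genes in both directions and by small amounts. On day 1 with Nle1 present, 13 of 78 genes passed an adjusted p under 0.05, which is 16.7% against 49.7% of all 16552 genes tested. Of these, 7 were higher and 6 lower (24.7% and 25% of all genes). On day 2 it was 31 genes, or 39.7% against 58.7%, with 7 higher and 24 lower (29.2% and 29.4% of all genes). With Nle1 lost, Apc loss (double knockout against NlecKO) changed 38 genes on day 1 (48.7% against 52.6%), 33 higher and 5 lower (28.2% and 24.4% of all genes). On day 2 it changed 19 (24.4% against 47.8%), 8 higher and 11 lower (25.6% and 22.2% of all genes). The libraries of both groups did not overlap for 28, 35, 42 and 29 of the 78 genes in these 4 comparisons. That is 35.9%, 44.9%, 53.8% and 37.2%, beside 58.5%, 63.6%, 57.5% and 58.3% of all genes. On scaled counts the share of members called was below that of all genes in all 4 comparisons. On TPM (below) it was above it on day 1 with Nle1 lost, at 73.1% against 50.5%. At least 1.5-fold change was reached by 1, 3, 3 and 2 of the 78 genes in these comparisons, or 1.28% to 3.85%, against 36.9% to 45.5% of all genes tested. No member reached 2-fold.

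The split of calls into higher and lower depended on the scale, and on day 2 it turned. Tested on log2(TPM + 1) with limma, an alternative added after the data were seen, Apc loss with Nle1 present raised 17 genes and lowered 1 on day 1, and with Nle1 lost it raised 55 and lowered 2 on that day. On day 2 with Nle1 present it raised 21 and lowered 4, where scaled counts gave 7 and 24, and with Nle1 lost it raised 20 and lowered 4, where scaled counts gave 8 and 11. Members called on TPM were 23.1% and 32.1% on days 1 and 2 with Nle1 present, against 46.5% and 57.6% of all genes. With Nle1 lost they were 73.1% and 30.8%, against 50.5% and 46.5%. On day 2 the split also moved with the filter on low counts. Leaving out only genes with at most 1 count over all libraries gave 10 higher and 13 lower with Nle1 present. With Nle1 lost that filter gave 5 and 11. A stricter filter of 2 CPM in 3 libraries gave 13 and 19, and 6 and 21. With only the compared libraries in the fit, the split on day 2 with Nle1 lost was 5 and 14. The TPM scale moved the median of all genes by 0.102 (log2) on day 1 and 0.136 on day 2 with Nle1 present. Relative to the all-gene median, the median member on day 2 with Nle1 present was at -0.101 on scaled counts and -0.034 on TPM, and on day 1 with Nle1 lost at 0.143 and 0.221. On day 1 with Nle1 present it was at 0.003 and 0.053, and on day 2 with Nle1 lost at -0.036 and -0.004. This relative median thus had the same sign on both scales in each comparison. The named genes recomputed on TPM kept their sign there, and those that did not pass on that scale are given below for the main examples.

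Without the 3 libraries that stand apart, 6 genes passed on day 1 with Nle1 present (3 higher, 3 lower) in place of 13, with 1 ApccKO library left and the spread taken from the other groups. The count was 39 with Nle1 lost (38 higher, 1 lower) in place of 38. Without Control replicate 1 the count with Nle1 present was 7 on day 1, and without NlecKO replicate 1 the count with Nle1 lost was 21.

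By subunit, on day 2 with Nle1 present, 5 large-subunit genes were higher and 15 lower of 49, and 2 small-subunit genes higher and 7 lower of 26. The median log2 change was -0.062 over the large-subunit and -0.107 over the small-subunit genes, beside 0.016 over all genes. On day 1 with Nle1 lost the medians were 0.19 and 0.18, beside 0.037 over all genes. Genes with a bacterial counterpart and genes specific to mitochondria were at -0.078 and -0.021 in the large subunit, and at -0.12 and 0.0029 in the small subunit, on day 2 with Nle1 present.

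**Figure D3:**
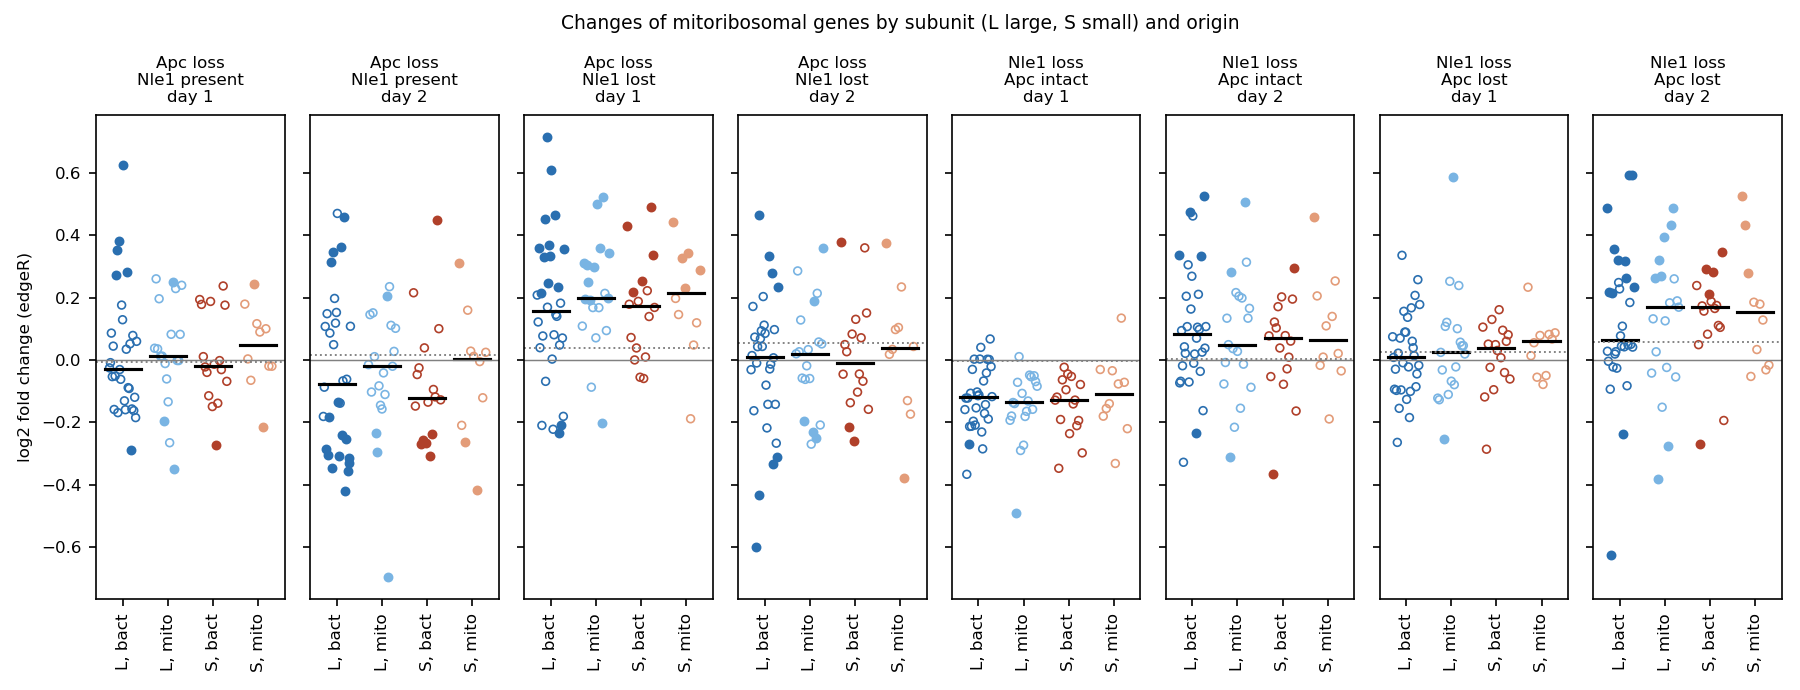
Each point is a gene and its log2 fold change (edgeR) in 1 of 8 comparisons, split by large (L) or small (S) subunit and by bacterial counterpart (bact) or mitochondria specific (mito). Filled points passed an adjusted p under 0.05, bars are medians and the dotted line is the median of all genes tested. Points lie between -0.70 and 0.72, and the 4 classes overlap in every panel.

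Mrps36, the 2-oxoglutarate dehydrogenase subunit, fell in all 4 comparisons of Apc loss. On day 1 it was at 69.6, 53.6 and 54.7 CPM in Control and 38.9, 47.1 and 37.0 in ApccKO. The day 2 libraries were at 64.5, 52.5 and 55.0 in Control and 30.8, 38.2 and 26.6 in ApccKO, and the groups did not overlap on either day. With Nle1 lost it was at 69.2, 61.1 and 61.1 (NlecKO) against 44.9, 38.8 and 45.1 CPM (double knockout) on day 1. The day 2 libraries were at 62.8, 58.7 and 69.7 against 39.6, 38.1 and 36.5 CPM. Every Apc-lost library was below every Apc-intact library of either day. Log2 changes were -0.53 ± 0.13 (SE) and -0.85 ± 0.13 on days 1 and 2 with Nle1 present (edgeR adjusted p = 0.00204 and 1.5e-05). With Nle1 lost they were -0.57 ± 0.13 and -0.74 ± 0.13 (edgeR adjusted p = 0.000981 and 0.00011). Mrps36 passed in each of the 4 comparisons under every alternative run, TPM included. It shares 21.0% of its 31-base words with other genes, chiefly Mrps36-ps1, which had almost no counts.

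Mrpl51, a large-subunit protein specific to mitochondria, was also lower, and more so on day 2 with Nle1 present. On day 1 it was at 78.7, 78.9 and 77.6 CPM in Control and 58.6, 63.9 and 61.9 in ApccKO. The day 2 libraries were at 80.1, 77.3 and 72.9 in Control and 47.7, 49.0 and 45.4 in ApccKO. With Nle1 lost on day 2 it was at 73.5, 75.1 and 79.5 in NlecKO and 62.7, 61.7 and 67.4 in the double knockout. ApccKO libraries of day 2 were the lowest of all, and the double knockout lay between them and the Apc-intact groups. The log2 change was -0.35 ± 0.058 on day 1 and -0.70 ± 0.059 on day 2 with Nle1 present (edgeR adjusted p = 8.4e-05 and 1.08e-08). With Nle1 lost it was -0.20 ± 0.058 and -0.25 ± 0.058 (edgeR adjusted p = 0.00684 and 0.00155). On TPM, Mrpl51 changed by -0.11 (limma adjusted p = 0.336) on day 1 and -0.35 (limma adjusted p = 0.00371) on day 2 with Nle1 present, and by -0.012 (limma adjusted p = 0.925) on day 1 with Nle1 lost. The day 1 call of Mrpl51 with Nle1 lost also failed without the 3 libraries that stand apart (-0.165, edgeR adjusted p = 0.0618) and with only the compared libraries in the fit (-0.22, edgeR adjusted p = 0.052).

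Mrpl34, a large-subunit protein with a bacterial counterpart, was at 73.9, 63.6 and 63.5 CPM in Control and 52.7, 58.3 and 53.6 in ApccKO on day 1. The day 2 libraries were at 67.6, 65.7 and 66.3 in Control and 46.4, 52.5 and 50.2 CPM in ApccKO. The groups did not overlap on either day. Log2 changes were -0.29 ± 0.080 and -0.42 ± 0.080 with Nle1 present, and -0.23 ± 0.080 and -0.33 ± 0.080 with Nle1 lost (edgeR adjusted p = 0.00538, 0.000155, 0.0189 and 0.00184). On TPM, Mrpl34 passed only on day 2 with Nle1 present, at -0.23 (limma adjusted p = 0.0412). The day 1 call of Mrpl34 with Nle1 lost failed under 6 of 15 alternatives, at -0.18 (edgeR adjusted p = 0.124) without the 3 libraries that stand apart, with only the compared libraries, and without NlecKO replicate 2 or double knockout replicate 2 or 3. Mrps31, a small-subunit protein specific to mitochondria, was lower in 3 of the 4 comparisons, by -0.42 ± 0.085 on day 2 with Nle1 present (edgeR adjusted p = 0.000312). Its day 2 calls held under all 15 alternatives. The day 1 call of Mrps31 with Nle1 present was lost under 9 of 15, DESeq2 and TPM included.

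Mrpl17, a large-subunit protein with a bacterial counterpart, rose in all 4 comparisons. On day 1 it was at 49.5, 47.8 and 51.2 CPM in Control and 62.4, 64.3 and 62.7 in ApccKO. On day 2 it was at 44.9, 44.9 and 40.9 in Control and 55.6, 52.0 and 55.0 CPM in ApccKO. With Nle1 lost it was at 43.1, 51.1 and 51.1 (NlecKO) against 68.4, 66.8 and 63.5 (double knockout) on day 1, and at 48.5, 47.0 and 55.1 against 64.9, 70.8 and 72.2 CPM on day 2. The groups did not overlap in any of the 4 comparisons. Log2 changes were 0.35 ± 0.075 and 0.31 ± 0.075 with Nle1 present (edgeR adjusted p = 0.000748 and 0.00129). With Nle1 lost they were 0.45 ± 0.075 and 0.47 ± 0.075 (edgeR adjusted p = 6.88e-05 and 5.4e-05).

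Mrpl3, whose bacterial counterpart lies near the peptidyl transferase centre of the large subunit, rose alike. On day 2 it was at 49.2, 53.9 and 49.5 CPM in Control and 65.5, 60.6 and 70.2 in ApccKO, without overlap. Log2 changes were 0.28 ± 0.097 and 0.36 ± 0.098 with Nle1 present, and 0.47 ± 0.098 and 0.33 ± 0.098 with Nle1 lost (edgeR adjusted p = 0.0214, 0.00343, 0.000569 and 0.00802). The day 1 call of Mrpl3 with Nle1 present was lost without the 3 libraries that stand apart (0.31, edgeR adjusted p = 0.0993), with only the compared libraries in the fit, without Control replicate 1 or 2 and without ApccKO replicate 2.

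Mrpl50, a large-subunit protein specific to mitochondria, rose by 0.19 to 0.36 (log2). On day 1 it was at 55.0, 57.3 and 61.2 CPM in Control and 67.4, 70.7 and 68.1 in ApccKO. That call of Mrpl50 failed without Control replicate 1 and without the 3 libraries that stand apart, where the change was 0.24 (edgeR adjusted p = 0.121). Its weakest call was on day 2 with Nle1 lost, at 0.19 ± 0.077 (edgeR adjusted p = 0.0498), where NlecKO libraries (57.4, 56.6 and 68.0 CPM) overlapped the double knockout (65.0, 75.4 and 67.0 CPM).

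**Figure D4:**
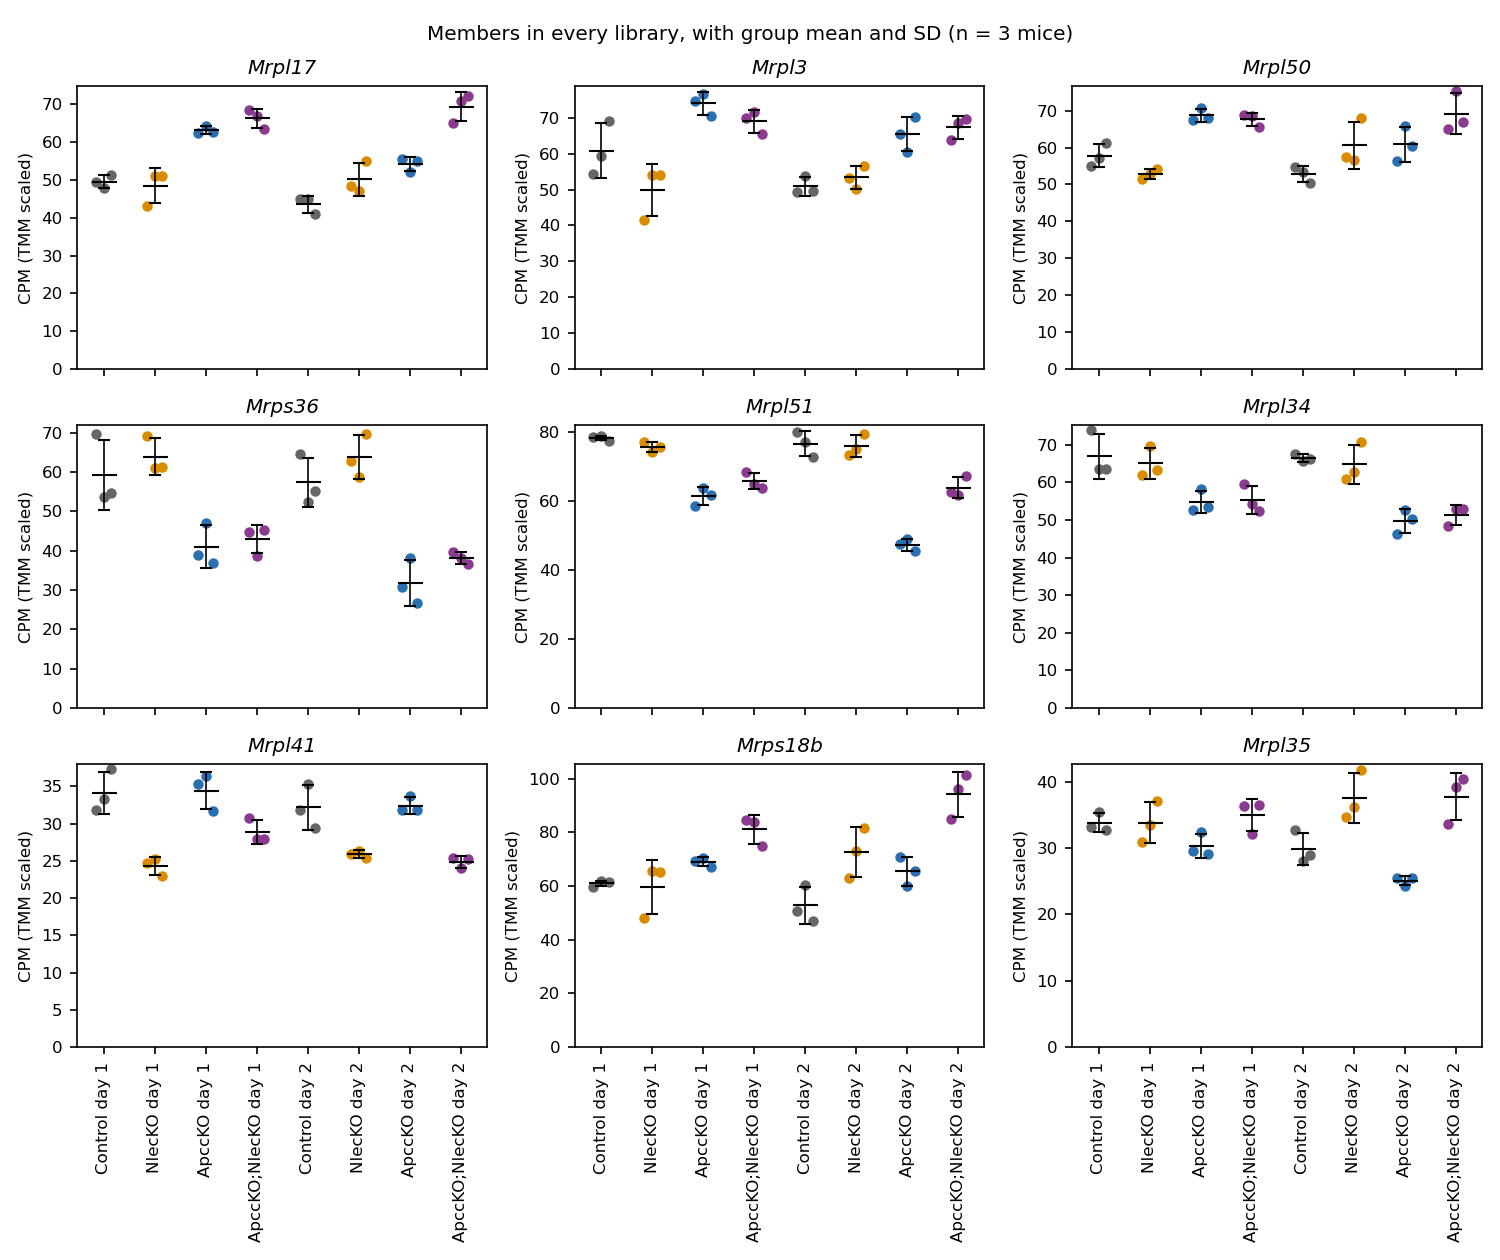
CPM of 9 genes in every library, with group mean and SD (n = 3 mice), all axes starting at 0. Mrpl17, Mrpl3 and Mrpl50 are higher and Mrps36, Mrpl51 and Mrpl34 lower in the Apc-lost groups, Mrpl41 is lower in both genotypes with Nle1 lost, and Mrps18b and Mrpl35 are higher with Nle1 lost on day 2.

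Other calls were less even. Mrpl33, a large-subunit protein with a bacterial counterpart, was higher on day 2 with Nle1 present (0.46 ± 0.097, edgeR adjusted p = 0.000446), and not called on day 1 (0.052). With Nle1 lost it was called higher on both days, on day 2 at 0.28 ± 0.097 (edgeR adjusted p = 0.0232). Mrps6, a small-subunit protein, was higher on day 2 with Nle1 present (0.45 ± 0.15, edgeR adjusted p = 0.0136) and on day 1 with Nle1 lost (0.49 ± 0.15, edgeR adjusted p = 0.00916). Mrpl19, which shares 37.9% of its 31-base words with other genes and chiefly with Gcfc2, had its widest change on day 1 with Nle1 lost (0.72 ± 0.13, edgeR adjusted p = 0.000136), and on day 2 with Nle1 lost was at 0.068. Mrpl23, with 4.70 to 5.90 CPM in Control and 6.69 to 9.31 in ApccKO on day 1, was higher by 0.62 ± 0.25 (edgeR adjusted p = 0.0406). Without the 3 libraries that stand apart Mrpl23 was at 0.84 (edgeR adjusted p = 0.0619) with 1 ApccKO library left. The call was also lost without any 1 Control replicate and without ApccKO replicate 1 or 2. Mrpl42 was the 1 gene called in opposite directions, higher on day 1 with Nle1 lost and lower on day 2 with and without Nle1. The paralogs Mrps18b and Mrps18c, both of the small subunit, also differed. On day 2 with Nle1 present Mrps18b was at 0.31 ± 0.12 (edgeR adjusted p = 0.0275) and Mrps18c at -0.27 (edgeR adjusted p = 0.00537), and Mrps18a, the paralog of the large subunit, at 0.027 (edgeR adjusted p = 0.779). The Mrps18b libraries overlapped in that comparison, at 50.8, 60.5 and 47.0 CPM in Control and 70.8, 59.9 and 65.7 in ApccKO. This call of Mrps18b was lost under 5 of 15 alternatives. Mrps18b shares 31.6% and Mrps18c 34.5% of its words with other genes.

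Of genes with known special roles, Mrpl12, the stalk protein that also binds the mitochondrial RNA polymerase, fell on day 2 with Nle1 present (-0.29, edgeR adjusted p = 0.00236). It was at 169, 177 and 173 CPM in Control and 153, 128 and 144 in ApccKO, without overlap. In TPM the groups overlapped, at 180, 205 and 194 in Control and 197, 160 and 181 in ApccKO. The other stalk proteins, Mrpl10 (-0.088) and Mrpl11 (0.11), did not pass edgeR's test on day 2 with Nle1 present. Mrpl45, which anchors the ribosome to the inner membrane, was at -0.15 and Mrps27, a pentatricopeptide repeat protein, at 0.011, and neither passed in that comparison. Mrpl11, Mrpl45 and Mrps27 were each called higher with Apc loss on day 1 with Nle1 lost. Mrpl45 was also called higher with Nle1 loss on day 2 where Apc was lost. In 20 of 78 genes no comparison of Apc loss passed, and the share of all genes without a call in these comparisons was not computed.

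Changes with Apc loss were correlated across genes between the sets of mice with and without Nle1, which share no library, but were offset on day 1. Across the 78 genes, Pearson's r between the log2 changes was 0.722 on day 1 and 0.811 on day 2 (0.793 and 0.824 over all genes tested). These are correlations across genes, which are not independent replicates. On day 1 the change had the same sign for 50 of 78 genes, and the median member was at -0.0036 with Nle1 present and 0.18 with Nle1 lost. Higher in both were 7 genes, of 7 and 33, and lower in both 3, of 6 and 5. On day 2 the sign was the same for 64 genes. There, 5 genes were higher in both, of 7 and 8, and 10 were lower in both, of 24 and 11. The share of all genes called alike was not computed.

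With Nle1 loss few genes were called on day 1 and more on day 2. With Apc intact, 2 of 78 genes passed on day 1 (2.56% against 2.48% of all genes), both lower (1.61% of all genes). On day 2, 11 passed (14.1% against 15.6%), 8 higher and 3 lower (7.33% and 8.26% of all genes). With Apc lost, 2 passed on day 1 (2.56% against 10.6%), 1 higher and 1 lower (5.87% and 4.77% of all genes). On day 2, 28 passed (35.9% against 34.9%), 23 higher and 5 lower (19.5% and 15.4% of all genes). The libraries did not overlap for 31 genes on each day with Apc intact, or 39.7%, beside 21.1% and 29.8% of all genes. With Apc lost they did not overlap for 17 and 40 genes, or 21.8% and 51.3%, beside 28% and 53.2%. On day 2 the shares called in either direction were near those of all genes. The share not overlapping was above that of all genes with Apc intact (39.7% against 29.8%). With Apc lost on day 2, 23 of the 28 calls on scaled counts were higher, while all genes split into 19.5% higher and 15.4% lower. Among the 23 genes higher on day 2 with Apc lost were 16 of the large and 7 of the small subunit. On day 1 the median log2 change of all 78 was -0.123 with Apc intact and 0.027 with Apc lost, beside -0.0035 and 0.025 over all genes. With Apc intact that was -0.119 relative to the all-gene median on scaled counts and -0.148 on TPM. The median log2 change of all 78 was 0.065 with Apc intact and 0.16 with Apc lost on day 2, beside 0.0032 and 0.056 over all genes. On TPM the splits turned, to 2 higher and 7 lower with Apc intact and 1 higher and 10 lower with Apc lost. Relative to the all-gene median, which the TPM scale moved by -0.157 with Apc lost, the median member was at 0.062 and 0.021 with Apc intact, and at 0.105 and 0.082 with Apc lost, on scaled counts and on TPM.

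With Apc intact on day 2, leaving out only genes with at most 1 count over all libraries gave 8 higher and 0 lower. The split was 14 and 2 under the stricter filter and 10 and 2 with DESeq2 size factors. No gene passed there when only the compared libraries were in the fit. Without Control replicate 2 the count of day 2 fell from 11 to 5, and without NlecKO replicate 3 to 3. With Apc lost, the count of day 2 was 17 without double knockout replicate 3. The day 1 calls with Apc lost, Mrpl48 (0.59) and Mrpl41 (-0.25), did not pass without the 3 libraries that stand apart. Their changes were then 0.56 and -0.27 (edgeR adjusted p = 0.317 and 0.421), with 1 ApccKO library left.

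Mrpl41, a large-subunit protein specific to mitochondria, fell in all 4 comparisons of Nle1 loss. On day 1 it was at 31.9, 33.3 and 37.3 CPM in Control and 24.7, 25.3 and 23.0 in NlecKO. On day 2 it was at 31.8, 35.3 and 29.4 in Control and 25.9, 26.4 and 25.4 in NlecKO. With Apc lost it was at 35.3, 36.3 and 31.7 (ApccKO) against 30.7, 28.0 and 27.9 (double knockout) on day 1, and at 31.8, 33.7 and 31.8 against 25.4, 24.0 and 25.3 CPM on day 2. No group with Nle1 lost overlapped its comparison group. Log2 changes were -0.49 ± 0.081 and -0.31 ± 0.080 with Apc intact (edgeR adjusted p = 0.00598 and 0.0114). With Apc lost they were -0.25 ± 0.080 and -0.38 ± 0.080 (edgeR adjusted p = 0.0474 and 0.000994). On TPM, Mrpl41 passed in all 4, at -0.59, -0.46, -0.35 and -0.56. The day 2 call with Apc lost held under all 15 alternatives run, and the day 1 call with Apc lost failed under 8 of them. With Apc intact, the day 1 call failed under 2 and the day 2 call under 4. Mrpl41 shares 21.1% of its words with Gm6434.

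Mrps12, the counterpart of the bacterial decoding-centre protein S12, and Mrpl28 were lower in both comparisons of day 2. Mrps12 was at 36.6, 45.3 and 35.6 CPM in Control and 32.3, 27.3 and 31.8 in NlecKO, and at 37.3, 38.0 and 38.5 in ApccKO and 31.4, 31.5 and 31.5 in the double knockout. Its log2 changes were -0.36 ± 0.10 and -0.27 ± 0.10 (edgeR adjusted p = 0.0193 and 0.0477). The call of Mrps12 with Apc lost failed without any 1 of its 6 libraries, and the call with Apc intact failed under 4 of 15 alternatives. Mrpl28 was at -0.23 ± 0.079 and -0.24 ± 0.079 (edgeR adjusted p = 0.0479 and 0.0235), and its call with Apc intact was lost under 10 of 15 alternatives.

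Mrpl14, the counterpart of a protein at the subunit interface, was lowest in the double knockout of day 2. It was at 38.1, 33.3 and 33.5 CPM in Control, 30.8, 25.9 and 26.9 in NlecKO, 24.2, 33.7 and 27.0 in ApccKO and 18.9, 18.5 and 17.7 in the double knockout. The 3 double knockout libraries were below all others of that day. Mrpl14 fell by 0.62 ± 0.12 on the log2 scale with Nle1 loss where Apc was lost (edgeR adjusted p = 0.000326) and by 0.60 ± 0.12 with Apc loss where Nle1 was lost (edgeR adjusted p = 0.000323). Both calls held under every alternative run. The difference between the effects of Nle1 loss with and without Apc did not pass for Mrpl14.

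The 8 genes higher with Nle1 loss in both genotypes on day 2 were Mrpl47, Mrpl52, Mrpl20, Mrps18b, Mrpl1, Mrpl35, Mrps7 and Mrpl42. Mrpl35, a large-subunit protein with a bacterial counterpart, was at 32.7, 28.0 and 28.9 CPM in Control and 34.7, 36.1 and 41.8 in NlecKO. With Apc lost it was at 25.5, 24.3 and 25.4 in ApccKO and 33.7, 39.3 and 40.4 in the double knockout. Neither pair of groups overlapped. The log2 change of Mrpl35 was 0.33 ± 0.093 and 0.59 ± 0.093 (edgeR adjusted p = 0.0183 and 6.15e-05), and on TPM 0.18 (limma adjusted p = 0.256) and 0.36 (limma adjusted p = 0.0105).

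Mrps18b was at 50.8, 60.5 and 47.0 CPM in Control and 63.1, 73.0 and 81.6 in NlecKO, and at 70.8, 59.9 and 65.7 in ApccKO and 85.0, 96.1 and 101 in the double knockout. Its log2 change was 0.46 ± 0.12 and 0.52 ± 0.12 (edgeR adjusted p = 0.0105 and 0.00149). On day 2 Mrps18b was called higher with either loss, and its highest libraries were those with both. Its ApccKO and Control libraries overlapped, and that call was lost under 5 of 15 alternatives. Mrpl47 was at 0.53 ± 0.12 and 0.59 ± 0.12 (edgeR adjusted p = 0.0059 and 0.000888), and Mrpl52 at 0.51 ± 0.11 and 0.49 ± 0.11 (edgeR adjusted p = 0.00461 and 0.00221). Mrpl47 shares 25.8% of its words with other genes, chiefly Ndufb5. On TPM, Mrps18b (0.30 and 0.27) and Mrpl52 (0.30 and 0.32) passed in neither comparison, and Mrpl47 passed with Apc intact (0.54, limma adjusted p = 0.0392). Mrpl20 passed with Apc intact on both scales (0.48 ± 0.087, edgeR adjusted p = 0.0011).

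The scatter of both comparisons of day 2 shows these genes. The comparisons share no library, and Pearson's r across the 78 genes was 0.732 (0.47 over all genes tested). All 8 genes higher with Apc intact were among the 23 higher with Apc lost, and all 3 lower were among the 5. On day 1, r was 0.27 (0.286 over all genes tested).

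**Figure D5:**
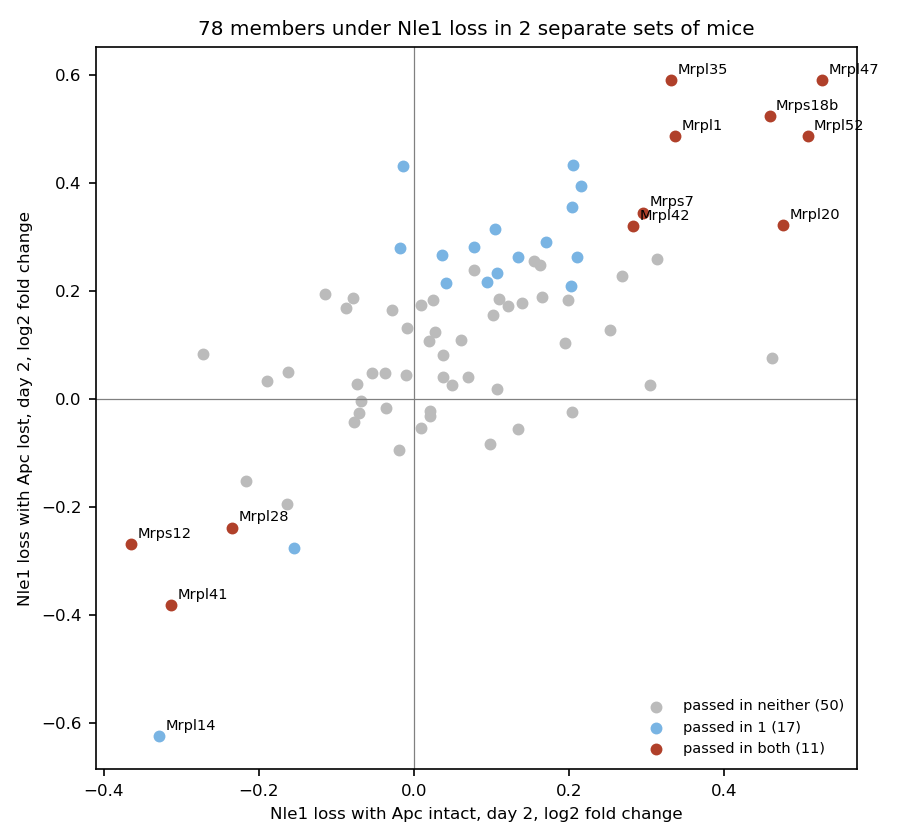
Log2 fold change with Nle1 loss on day 2, with Apc intact (horizontal) and Apc lost (vertical), for 78 genes. Red points (11) passed in both, blue points (17) in 1 and grey points (50) in neither. Mrpl35, Mrpl47, Mrps18b and Mrpl52 lie at the upper right and Mrpl41 and Mrps12 at the lower left.

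The effect of Nle1 loss differed by Apc status for 1 gene. Mrpl51 on day 2 was at 0.43 ± 0.059 with Nle1 loss where Apc was lost and -0.014 ± 0.058 where it was intact, and the difference was 0.45 ± 0.083 (edgeR adjusted p = 0.00426). That is 1.28% of the members against 5.24% of all genes called, 3.29% higher. On day 1 no member passed the edgeR test of that difference (0.0121% of all genes did), 9 had an unadjusted p under 0.05, and DESeq2 also called 0. Mrpl48 was called higher with Nle1 loss on day 1 where Apc was lost (0.59 ± 0.12, edgeR adjusted p = 0.00467). It was at 16.03, 16.4 and 16.1 CPM in ApccKO and 29.9, 17.6 and 25.4 in the double knockout, so replicate 2 lay near the ApccKO libraries. Mrpl48-ps, which shares 56.8% of its words with Mrpl48, was lower in the double knockout than in NlecKO on day 1 (-0.93 ± 0.34, edgeR adjusted p = 0.0249). This call of Mrpl48-ps failed without the 3 libraries that stand apart (-0.84, edgeR adjusted p = 0.0784) and without NlecKO replicate 2 or double knockout replicate 1 or 3.

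Between the days, no member passed edgeR's test in Control (17 with an unadjusted p under 0.05, 0.163% of all genes called) or in NlecKO (8, 0.0362%), and DESeq2 called 1 and 0. In ApccKO 19 genes were lower on day 2, 24.4% of members against 11.3% of all genes called in either direction and 5.49% called lower. Mrps22 led (-0.56 ± 0.12, edgeR adjusted p = 0.00473), at 40.9, 43.8 and 36.9 CPM on day 1 and 27.5, 26.7 and 28.4 on day 2. Mrpl1 (-0.48 ± 0.10, edgeR adjusted p = 0.00413) and Mrpl42 (-0.42 ± 0.074, edgeR adjusted p = 0.000977) followed. None of the 19 calls remained without the 3 libraries that stand apart, where Mrps22 was at -0.58 (edgeR adjusted p = 0.159) with 1 library left on day 1. The count was 9 without day 1 replicate 2 and 11 without day 2 replicate 1 or 3. It was 8 when only genes with at most 1 count over all libraries were left out, and 6 on TPM. In the double knockout Mrpl48, Mrpl49 and Mrpl14 were lower on day 2 (3.85% against 6.49%, 3.04% lower), Mrpl49 by -0.45 ± 0.072 (edgeR adjusted p = 0.00129). Leaving out replicate 3 of day 1 gave 5 genes. The effect of Apc loss differed between days for Mrpl51 (-0.35 ± 0.083, edgeR adjusted p = 0.0456, 1.13% of all genes called, 0.604% lower), a call that was lost under 15 of 21 alternatives and was at -0.29 (edgeR adjusted p = 0.68) without the 3 libraries that stand apart. That of Nle1 loss differed for no member by edgeR (26 with an unadjusted p under 0.05, 0.00604% of all genes called), and for 1 by DESeq2.

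Other genes of mitochondrial translation were called in both directions with Apc loss. The shares of all genes called in the 4 comparisons, in the order used here, were 24.7%, 29.2%, 28.2% and 25.6% higher and 25%, 29.4%, 24.4% and 22.2% lower. Of 6 mitoribosomal proteins with other symbols, 2, 1, 4 and 2 were higher and 1, 1, 0 and 1 lower in the comparisons of Apc loss on days 1 and 2 with Nle1 present and days 1 and 2 with Nle1 lost. Gadd45gip1, a large-subunit protein, was higher by 0.33 ± 0.13, 0.38 ± 0.13, 0.58 ± 0.13 and 0.45 ± 0.13 (edgeR adjusted p = 0.0442, 0.0192, 0.00132 and 0.00933). Dap3, a small-subunit GTP-binding protein, was lower with Nle1 loss on day 2, by -0.22 ± 0.056 with Apc intact and -0.20 ± 0.056 with Apc lost (edgeR adjusted p = 0.0112 and 0.0102). Of 25 assembly and rRNA modification factors tested, 9, 8, 12 and 8 were higher and 2, 4, 1 and 1 lower with Apc loss. Of 11 translation factors, 0, 0, 2 and 3 were higher and 2, 4, 2 and 0 lower, and of 17 mitochondrial tRNA synthetases 5, 5, 7 and 4 were higher and 3, 6, 1 and 1 lower. Of 9 genes of mitochondrial transcription and genome upkeep, 5 were higher in each comparison and 1, 3, 1 and 2 lower.

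The mitochondrially encoded transcripts, the templates of these ribosomes, went down with Apc loss. Of the 13, 8, 13, 11 and 13 were lower and 0 higher in the 4 comparisons, with median log2 changes of -0.36, -0.62, -0.45 and -0.70. In the 4 comparisons of Nle1 loss 0 passed edgeR's test, and 0, 1, 0 and 2 had an unadjusted p under 0.05. The cytosolic ribosomal protein symbols, whose counts are uncertain where pseudogenes share their sequence, were higher in 43, 68, 88 and 84 of 114 and lower in 4, 5, 3 and 3.

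Of 9 regulators of mitochondrial gene expression, 5, 5, 5 and 4 were higher and 3, 3, 3 and 4 lower with Apc loss. Myc, a Wnt target that drives ribosome production, was higher by 1.43 ± 0.20 and 1.44 ± 0.20 with Nle1 present on days 1 and 2 (edgeR adjusted p = 1.66e-05 and 6.15e-06). Pprc1, a growth-regulated coactivator of the PGC-1 family, was higher by 0.84 ± 0.17 and 0.95 ± 0.17 (edgeR adjusted p = 0.000602 and 0.000113). The coactivator Ppargc1b (-0.74 ± 0.12 and -1.02 ± 0.12, edgeR adjusted p = 4.06e-05 and 4.19e-07) and the nuclear receptor Esrra (-0.98 ± 0.14 and -1.21 ± 0.14, edgeR adjusted p = 2.45e-05 and 9.29e-07) were lower. These changes were larger than those of any mitochondrial ribosomal gene in the same comparisons. With Nle1 loss on day 2, Gabpa, an ETS factor, was lower where Apc was lost (-0.38 ± 0.077, edgeR adjusted p = 0.000822) and Esrra higher (0.81 ± 0.14, edgeR adjusted p = 0.000222).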

How the data were processed

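Per the submitters' processing notes, reads were handled with kallisto 0.43 on the mouse build mm9, and DESeq2 and DESeq are named there without a role. The authors deposited estimated counts and TPM per gene for 24 libraries, and no annotation release is named. Another table, of counts normalized by the authors, was not used. Estimated counts were rounded to whole numbers and fitted with edgeR 4.0.16 (R 4.3.3): filterByExpr with a minimum count of 10, TMM scaling, 1 coefficient per group over all 24 libraries, robust quasi-likelihood tests and Benjamini-Hochberg adjustment over the 16552 genes tested, with a threshold of 0.05. CPM are scaled by TMM. SE is that of the log2 fold change. TPM, which the authors deposited, served for levels between genes and for limma 3.58.1 on log2(TPM + 1). Alternatives were DESeq2 1.42.0, its size factors, other filters, a replicate block, a term for sex, fits on the compared libraries only, and leaving out libraries. Scripts were tested on simulated data. Promoters came from RefSeq (GRCm38.p6), and shared words from GENCODE transcripts of GRCm38. Named genes were the up to 6 raised and 6 lowered members of widest change per main comparison (3 and 3 for other comparisons), up to 4 of the rarer direction, the highest 5 and lowest 3 by TPM, a list with known roles, and up to 4 of each other list. The members and lists were chosen with earlier results of these data known. Counts in a library limit precision: members had means of 35.3 to 3600 counts.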

Additional observations from a re-analysis of the deposited data

Results flagged for a closer look

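The effect of Nle1 loss on Mrpl51 differed between Apc-lost and Apc-intact crypts on day 2, by 0.45 ± 0.083 (log2, edgeR adjusted p = 0.00426). The difference was 0.35 (edgeR adjusted p = 0.0602) with only the compared libraries in the fit and 0.20 (limma adjusted p = 0.483) on TPM. The effect of Apc loss on Mrpl51 with Nle1 present differed between the days, by -0.35 ± 0.083 (edgeR adjusted p = 0.0456), and this call was lost under 15 of 21 alternatives, with a range of -0.40 to -0.23. The interaction kept its call without any 1 library, and the difference between days lost it without any of 10 of its 12 libraries.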

How the results depend on the processing

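Across 79 named gene results and 1197 recomputations, 997 kept their call, 200 kept their direction without passing and 0 changed sign. Counts of members called that moved were these. With only the compared libraries: Apc loss with Nle1 lost on day 1, 19; Nle1 loss with Apc intact on both days and with Apc lost on day 1, the interaction on day 2 and Apc loss by day, each 0. Without the 3 libraries that stand apart: Apc loss on day 1 with Nle1 present, 6; Nle1 loss with Apc lost on day 1, ApccKO between days and Apc loss by day, each 0. On TPM: Nle1 loss with Apc intact and with Apc lost on day 1, each 4, and with Apc lost on day 2, 11; ApccKO between days, 6; the interaction on day 2 and Apc loss by day, 0. With only genes of at most 1 count over all libraries left out: Nle1 loss on day 1, 1 with either Apc status. That filter gave 8 for ApccKO between days and 0 for Apc loss by day. The stricter filter gave 6 for the double knockout between days and 1 for Nle1 loss in Apc-intact crypts of day 1, as did DESeq2 size factors (1). DESeq2's own test gave 4 there, and 1 for Control between days and for Nle1 loss by day. A term for sex gave 1 and 2 for the last pair. With the replicate number as a block, Nle1 loss on day 1 gave 1 with either Apc status, and Apc loss by day 0. Same-numbered libraries correlated at -0.405 to 0.587, with 15 of 36 pairs over 0.1 and 13 of 36 best with their own number. This neither shows nor excludes that the numbers pair the mice. By Y-linked genes 9 libraries were male and 15 female, and replicate 1 was male in most groups. Unless stated in the report, the cause was not tested.

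Leaving out 1 library gave 7 to 13 members called for Apc loss on day 1 and 21 to 32 on day 2 with Nle1 present, and 21 to 40 and 13 to 25 with Nle1 lost. Nle1 loss gave 0 to 8 and 3 to 12 with Apc intact, and 1 to 2 and 17 to 29 with Apc lost. The interaction gave 0 to 1 on day 1 and 1 throughout on day 2. Between days the counts were 0 in Control and NlecKO, 9 to 15 in ApccKO and 2 to 5 in the double knockout. Apc loss by day gave 0 to 1 and Nle1 loss by day 0 to 3. Beyond those named in the report, single libraries moved these counts by over 1.5 times. The 2 calls of Nle1 loss in Apc-intact crypts of day 1 became 8 without Control replicate 1, 0 without Control replicate 3 and 1 without any other library. The 2 calls in Apc-lost crypts of that day became 1 without replicate 1 or 2 of ApccKO or replicate 3 of the double knockout. The day 1 interaction gave 1 without double knockout replicate 2. Apc loss by day gave 0 without any of 10 of its 12 libraries. Nle1 loss by day gave 3 without day 1 Control replicate 1 and 1 without day 2 NlecKO replicate 1. With 3 mice a group and a biological coefficient of variation of 17.6%, a p that misses the threshold does not show that a gene kept its level.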
